A study of Mus musculus with 8 samples.

Results

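Heat shock proteins and J-domain cochaperones were followed across the hippocampus and the pre-frontal cortex (PFC) of the adult mouse. The members were all gene names that begin with Hspa, Hspb, Hspd, Hspe or Hsph and a digit, with Hsp90, or with Dnaja, Dnajb or Dnajc and a digit. This rule took 79 of the 34620 gene names in the table. They were 14 names of the HSP70 and HSP110 family, 3 of the HSP90 family, 8 small heat shock proteins, 2 subunits of the mitochondrial chaperonin, 4, 13 and 28 J-domain genes of classes A, B and C, and 7 names of pseudogenes. The libraries came from untreated C57Bl6 mice aged 7 to 9 weeks by the labels, with 4 libraries per region and the tissue of 2 animals pooled in each. Total RNA depleted of ribosomal RNA was reverse transcribed, amplified and sequenced on an Illumina Genome Analyzer IIx. By the number of mice in the study's methods each pool of mice seems to have given both tissues, but which libraries share a pool is not stated, so the regions were compared without pairing. Each p therefore weighs the difference against the spread between pools, not between single mice.

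Chaperones of the HSP70 family bind unfolded stretches of other proteins and release them in a cycle driven by ATP. J-domain proteins bring clients to HSP70 and start ATP hydrolysis, HSP110 proteins exchange the nucleotide, HSP90 takes over partly folded clients such as kinases and receptors, and small heat shock proteins hold unfolded clients without ATP. Some members rise after heat through heat shock factors, others serve the endoplasmic reticulum or the mitochondrion, and in neurons HSP70 with the J-domain protein auxilin strips the coat from clathrin-coated vesicles.

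The libraries held 3164964 to 16636500 reads assigned to genes, and 3 reads, the limit that a count of 0 allows, were 1.30 to 6.93 normalized counts (reads divided by the library's DESeq size factor). This limit covers counting error only. Hippocampus replicate 2 stood apart, with a limma array weight of 0.287 against 0.667 to 3.01 in the other libraries. Though the methods give male mice, every library held both Xist, a transcript of the inactive X chromosome (1670 to 5232 normalized counts), and the Y-linked Ddx3y (155 to 393). Most markers of the dissected regions fitted the labels. At a limma adjusted p under 0.05, 9 of 10 markers of CA pyramidal neurons and 6 of 10 of dentate granule neurons were higher in the hippocampus. The tenth CA marker, Coch, was higher in the PFC. Of the markers of cortical layers, 9 of 11 were higher in the PFC. Some markers that did not pass had the opposite sign. Their log2 fold changes, hippocampus over PFC, were -0.05 (Stra6) and -0.12 (Npnt) for dentate markers, 0.16 (Fezf2) and 0.12 (Etv1) for cortical ones. Markers of other cells also differed between the regions. At the same threshold, all 10 oligodendrocyte markers and 7 of 10 choroid plexus markers were higher in the hippocampus. All 10 markers of striatal projection neurons and 4 of 6 of olfactory bulb neurons were higher in the PFC. All 10 choroid plexus markers had a log2 fold change above 0, and no olfactory bulb marker did. Their part in any difference given here was not tested, and in bulk tissue fewer cells of a type and less RNA per cell cannot be told apart.

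The members differed little between the regions. Of the 71 members that averaged 1 normalized count or more over the 8 libraries, Hspa2 passed an adjusted p of 0.05 as higher in the hippocampus and Hspb3 as higher in the PFC (limma on log2(normalized count + 1), adjusted by the Benjamini-Hochberg method over 19789 genes, two-sided). Over all genes tested, 2.55% were called higher in the hippocampus and 3.13% higher in the PFC, so the 1 member in each direction was not above the background. In 4 members (5.63%) the ranges of the regions did not overlap, against 11.8% of all genes. An unadjusted p under 0.05 was reached by 7 members (9.86%), against 16.9% of all genes. The log2 fold change, hippocampus over PFC, was above 0 in 40 members and below 0 in 31, with a median of 0.03 beside 0.0038 for all genes. Its size without sign had a median of 0.13 among members and 0.23 among all genes. The gap was smaller at a mean of at least 100 normalized counts, with medians of 0.105 among members and 0.151 among all genes.

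**Figure D1:**
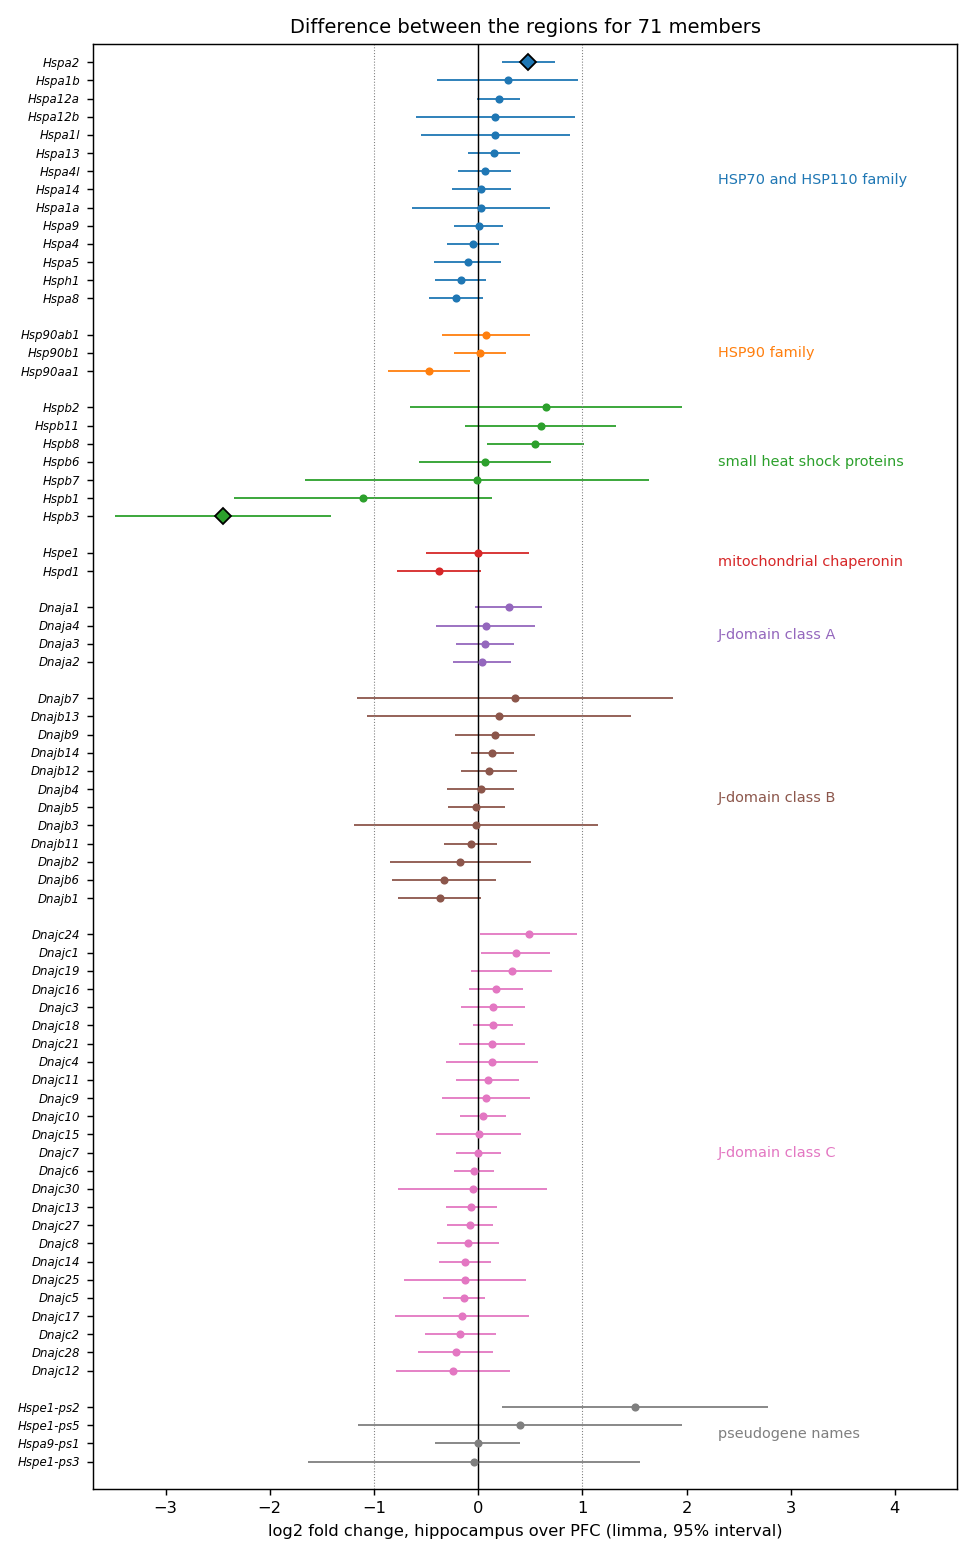
Log2 fold change of each of the 71 tested members, hippocampus over PFC, with its 95% interval from limma (x axis), grouped and coloured by class. Diamonds with a black edge are the members that passed an adjusted p of 0.05, Hspa2 at 0.48 and Hspb3 at -2.45, and dotted lines mark a log2 fold change of 1 in each direction.

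The intervals bounded most of the differences. For 59 of the 71 members (83.1%) the 95% interval of the fold change stayed within 2-fold, against 59.6% of all genes. Among the 43 members that averaged 100 normalized counts or more, 42 stayed within 2-fold and 36 (83.7%) within 1.5-fold, the latter beside 72.2% of all genes at that level. The median SE of these 43 was 0.13 on the log2 scale. The intervals were wider for the 9 members with a mean under 10 normalized counts, as for Hspb7, a small heat shock protein known from heart (-1.66 to 1.64).

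Hspb3, a small heat shock protein known from heart and muscle, had the largest difference of any member in size. It is a gene of 781 exon bases on the minus strand of chr13:114453104-114453884 of NCBIM37 (ENSMUSG00000051456.4, protein-coding). The 250 bases before its start in RefSeq, chr13:113663677-113663926 of GRCm38.p6 on the minus strand, are shown because it is the member with the clearest difference, with a pair of heat shock units (GAANNTTC, the inverted units that heat shock factors bind) and a TATAAA in capitals.
Hspb3: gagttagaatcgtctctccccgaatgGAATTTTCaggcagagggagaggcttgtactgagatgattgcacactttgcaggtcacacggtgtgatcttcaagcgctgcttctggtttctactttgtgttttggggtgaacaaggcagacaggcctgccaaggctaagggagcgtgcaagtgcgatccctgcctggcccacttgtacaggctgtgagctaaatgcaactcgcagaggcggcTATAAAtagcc
Its normalized counts were 8.22, 0.962, 3.15 and 4.62 in hippocampus replicates 1 to 4 and 30.7, 12.6, 27.2 and 29.6 in PFC replicates 1 to 4. The lowest PFC library was above the highest hippocampus library. The means were 4.24 ± 3.05 and 25.02 ± 8.44 (SD, n = 4 each), a 5.90-fold higher level in the PFC. The log2 fold change was -2.45 with an SE of 0.49 (limma adjusted p = 0.00586). The call rests on few reads, 19, 1, 6 and 2 in the hippocampus, against 20, 10, 19 and 44 in the PFC, and the counts of hippocampus replicates 2 and 4 were under the 3 reads that a count of 0 allows. It passed in each of the 18 alternative settings tried, where its adjusted p ran from 0.000234 (DESeq2) to 0.0403 (without PFC replicate 4) and its log2 fold change from -2.79 (without hippocampus replicate 1) to -1.83 (pseudocount 4). The summed markers of striatal projection neurons were 1371 to 1643 normalized counts in the hippocampus libraries and 2743, 3524, 3735 and 5344 in PFC replicates 1 to 4, and those of cortical layers 4093 to 4782 and 9578 to 12733. The part of these cells in the difference was not tested.

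Hspa2, an HSP70 best known from male germ cells, was higher in the hippocampus. It has 2520 exon bases on the plus strand of chr12:77505163-77507921 of NCBIM37 (ENSMUSG00000059970.6, protein-coding). The 250 bases before its RefSeq start, chr12:76404120-76404369 of GRCm38.p6 on the plus strand, are shown for comparison with Hspb3. They hold neither a pair of heat shock units nor a TATAAA, and the capitals mark ATTGG, the CCAAT box read on the opposite strand.
Hspa2: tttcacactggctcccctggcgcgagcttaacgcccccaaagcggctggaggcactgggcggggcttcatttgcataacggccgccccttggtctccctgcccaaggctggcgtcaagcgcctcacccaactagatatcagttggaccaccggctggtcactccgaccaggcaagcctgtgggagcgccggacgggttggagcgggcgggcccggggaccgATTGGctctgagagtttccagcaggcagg
Its normalized counts were 777, 818, 807 and 707 in hippocampus replicates 1 to 4 and 684, 564, 513 and 481 in PFC replicates 1 to 4. All hippocampus libraries lay above all PFC libraries, and PFC replicate 1 came closest to them. The means were 777 ± 49.99 and 560 ± 89.0 (SD, n = 4 each), a 1.39-fold higher level in the hippocampus with a log2 fold change of 0.48 (SE 0.12, limma adjusted p = 0.0238). The call was lost in 6 of the 18 alternatives, with the log2 fold change between 0.41 and 0.58 throughout. The adjusted p was 0.0667 without hippocampus replicate 1, 0.0818 without hippocampus replicate 3, and 0.0579, 0.103 and 0.0998 without PFC replicates 2, 3 and 4. It was 0.0543 with the replicate number as a block. Summed oligodendrocyte markers were 127730, 121806, 118187 and 124544 normalized counts in hippocampus replicates 1 to 4 and 83604, 81903, 60276 and 57428 in PFC replicates 1 to 4. Summed markers of dentate granule neurons were 4206 to 5240 in the hippocampus, against 902 to 2355 in the PFC, and those of CA pyramidal neurons 7145 to 7784 against 3072 to 4946. The part of these cells in the difference was not tested.

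**Figure D2:**
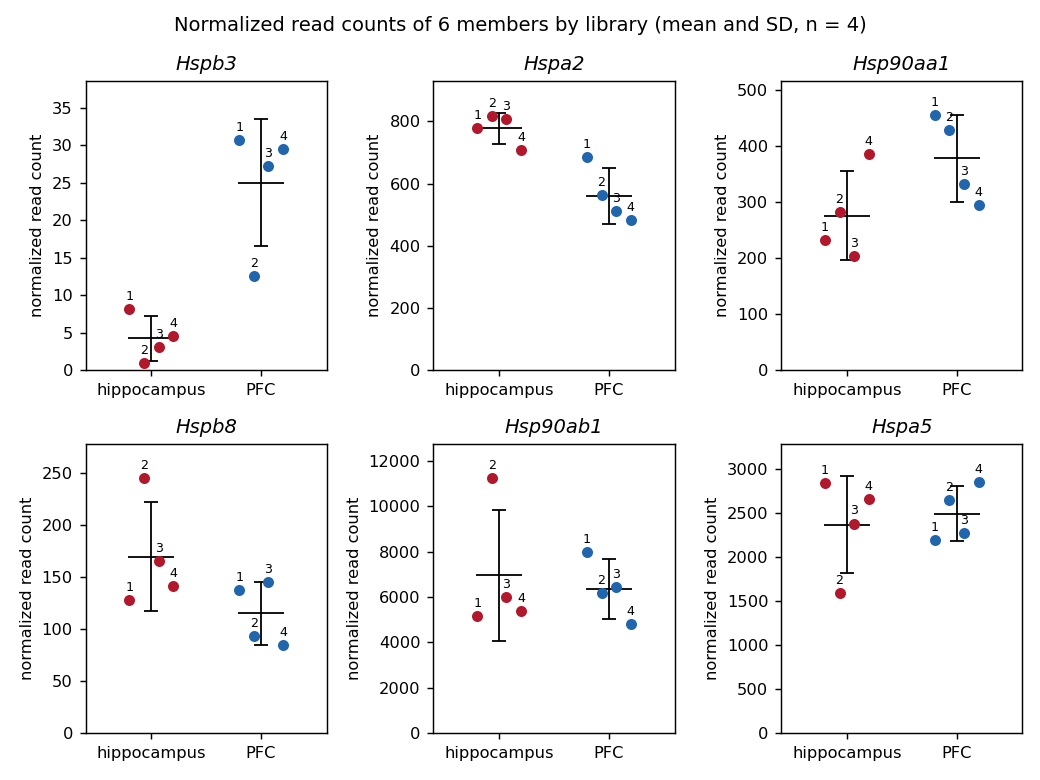
Normalized read counts (y axis, from 0) of 6 members in the 4 hippocampus and 4 PFC libraries. Points are libraries with their replicate number, and the black bars give the mean and SD (n = 4). Hspb3 and Hspa2 do not overlap between the regions, and the other 4 do. Hippocampus replicate 2 lies outside all other libraries in every panel but that of Hsp90aa1, above them in Hspa2, Hspb8 and Hsp90ab1 and below them in Hspb3 and Hspa5.

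Of the other 5 members with an unadjusted p under 0.05, none passed the adjustment over all genes. Hsp90aa1, the stress-inducible cytosolic HSP90, had 232, 282, 204 and 386 normalized counts in hippocampus replicates 1 to 4 and 456, 429, 332 and 295 in PFC replicates 1 to 4, so that the regions overlapped (log2 fold change -0.47, SE 0.19, limma adjusted p = 0.185). Its adjusted p was 0.0457 without hippocampus replicate 4 and 0.00395 with libraries weighted by their quality. Hspb8, a small heat shock protein that works with the cochaperone Bag3 in clearing misfolded proteins, had 127, 244, 165 and 141 in the hippocampus, against 137, 92.9, 145 and 84.7 in the PFC (0.55, SE 0.22, limma adjusted p = 0.194). Its highest value again came from hippocampus replicate 2. Dnajc1, a J-domain protein of the endoplasmic reticulum membrane, had a log2 fold change of 0.36 (SE 0.15, limma adjusted p = 0.237). Dnajc24, which takes part in making the diphthamide of elongation factor 2, had a log2 fold change of 0.49 (SE 0.22, limma adjusted p = 0.263; 0.0352 with libraries weighted). Hspe1-ps2, a pseudogene name, had 3.15 to 4.62 normalized counts in the hippocampus, against 0 to 2.51 in the PFC (1.505, SE 0.60, limma adjusted p = 0.197). It had 24 reads in all, 9, 4, 6 and 2 in hippocampus replicates 1 to 4 and fewer than 3 in each PFC library. Its highest value, 4.62 in hippocampus replicate 4, was under the 6.93 that 3 reads make in that library. Dnajc18 was the remaining member whose regions lay apart, at 1504, 1544, 1442 and 1552 against 1408, 1381, 1290 and 1399, a log2 fold change of 0.14 (SE 0.09, limma adjusted p = 0.485).

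Within the HSP70 and HSP110 family, Hspa2 was the 1 of 14 members that passed, and the log2 fold changes ran from -0.21 to 0.48 with a median of 0.05. Hspa8, the constitutive HSP70 that uncoats clathrin, had 985, 1327, 964 and 1247 normalized counts in the hippocampus, against 1469, 1320, 1290 and 1132 in the PFC. The regions overlapped, and the log2 fold change was -0.21 (SE 0.12, limma adjusted p = 0.426; 0.0178 with libraries weighted). Hsph1, an HSP110 that exchanges the nucleotide of HSP70, had 4016, 2900, 4144 and 4121 against 3858, 4254, 4527 and 4254, with a log2 fold change of -0.17 (95% interval -0.41 to 0.08). Hspa4, another HSP110, had means of 3318 ± 549 and 3402 ± 211 (SD, n = 4 each) and an interval of -0.30 to 0.20. Hspa12a, a distant relative of HSP70 that is abundant in brain, had 3248, 2737, 3365 and 3352 in the hippocampus, against 2806, 2888, 2784 and 2577 in the PFC. Only hippocampus replicate 2 fell among the PFC values, and without it, or with libraries weighted, this member passed. With all 8 libraries its log2 fold change was 0.20 (SE 0.10, limma adjusted p = 0.322).

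In the HSP90 family none of the 3 members passed. Hsp90ab1, the constitutive cytosolic HSP90, was the most abundant member with 5172, 11241, 5999 and 5392 normalized counts in the hippocampus, against 7989, 6156, 6457 and 4800 in the PFC. Hippocampus replicate 2 held 2.04 times the mean of the other hippocampus libraries. The log2 fold change was 0.08 with all libraries but -0.18 without that library and -0.05 without PFC replicate 4, so its direction rested on single libraries. Hsp90b1, the HSP90 of the endoplasmic reticulum, had 4027, 2682, 3644 and 3710 against 3126, 3710, 3521 and 3403 and a 95% interval of -0.23 to 0.27.

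Apart from Hspb8, no small heat shock protein had a level above 18.7 normalized counts per kb of exons over all 8 libraries, the value of Hspb3, which had 32.0 per kb in the PFC and 5.43 in the hippocampus. Hspb3 was the 1 of 7 tested members that passed. Hspb11, which also serves as a subunit of the intraflagellar transport machinery, had 31.6, 22.1, 20.5 and 57.8 normalized counts in the hippocampus, against 15.4, 26.4, 18.6 and 19.5 in the PFC (a log2 fold change of 0.60, SE 0.34, limma adjusted p = 0.419). Hspb6, known from smooth muscle, had means of 28.8 ± 7.85 and 27.3 ± 5.97 (SD, n = 4 each). Hspb1, the classical heat-inducible small heat shock protein, was at 2.60, 1.92, 1.58 and 0 in the hippocampus, against 6.15, 2.51, 4.30 and 3.36 in the PFC, 25 reads in all. Hspb2, Hspb7 and Hspb9 had no library above 4.62 normalized counts.

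The mitochondrial chaperonin is made of Hspd1, its folding chamber, and Hspe1, its lid. The genes lie head to head on chromosome 1, and their RefSeq promoter windows overlap in a stretch with heat shock units. It holds 2 overlapping matches of the motif of 3 units (GAANNTTCNNGAA), and is shown on each gene's own strand with 1 match in capitals and the further unit of the other in lower case (chr1:55088049-55088091 of GRCm38.p6).
Hspe1, plus strand: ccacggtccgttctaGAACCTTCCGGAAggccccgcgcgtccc
Hspd1, minus strand: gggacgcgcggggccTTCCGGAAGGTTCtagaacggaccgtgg
Hspd1 had 166, 117, 116 and 185 normalized counts in the hippocampus, against 209, 221, 137 and 188 in the PFC, and Hspe1 had 36.8, 45.2, 47.8 and 55.4 against 52.3, 56.5, 38.7 and 39.0. The regions overlapped in both genes. The log2 fold changes were -0.38 (SE 0.19, limma adjusted p = 0.339) for Hspd1 and -0.0037 (SE 0.23) for Hspe1, the latter near 0 with a sign that changed under TMM scaling and quantile normalization.

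No J-domain gene passed in classes A (4 tested), B (12 of 13 tested) or C (25 of 28 tested). The medians of the log2 fold changes were 0.07, 0.0042 and -0.000195. In class A, Dnaja1 and Dnaja2, the main cytosolic partners of HSP70, had log2 fold changes of 0.29 (SE 0.15, limma adjusted p = 0.357) and 0.04 (SE 0.13). Dnaja2 had 1774, 1138, 1569 and 1772 normalized counts in the hippocampus, against 1366, 1618, 1587 and 1446 in the PFC. In class B, Dnajb1, the heat-inducible partner of HSP70, had 397, 219, 351 and 485 against 373, 448, 480 and 518 (-0.37, SE 0.19, limma adjusted p = 0.353). Dnajb14, a J-domain protein of the endoplasmic reticulum membrane, was the most counted of the class at 1203 to 1458 and 1119 to 1267. Dnajb5 was at 651, 1021, 773 and 670 against 807, 738, 743 and 812. Dnajb2 and Dnajb6, which keep aggregation-prone proteins soluble, had means of 49.9 ± 27.8 and 41.9 ± 12.2 for the hippocampus, 53.5 ± 19.9 and 51.7 ± 4.01 for the PFC (SD, n = 4 each).

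In class C, Dnajc6 and Dnajc5, which serve vesicles, had the highest levels per kb of exons. Dnajc6, the neuronal auxilin, had 3814, 4373, 3610 and 3962 normalized counts in the hippocampus, against 4067, 3900, 4013 and 4190 in the PFC, with a 95% interval of the log2 fold change from -0.23 to 0.15. Dnajc5, the cysteine string protein of synaptic vesicles, had 3895, 3347, 3649 and 3897 against 3847, 3932, 3959 and 4508, with an interval of -0.34 to 0.06. Dnajc13, an endosomal partner of HSP70, had means of 678 ± 80.9 and 707 ± 66.7 (SD, n = 4 each). With Hspa8 these made up a group of 4 clathrin and vesicle members, in which all 4 log2 fold changes were below 0, between -0.21 and -0.04, and none passed. Dnajc13 turned to 0.018 with libraries weighted, and Dnajc6 to 0.00065 without hippocampus replicate 3.

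The members of the endoplasmic reticulum did not pass either. Of 11 members 8 had log2 fold changes above 0, with a median of 0.10 and a range from -0.13 to 0.36. Without hippocampus replicate 2, Hspa5 turned from -0.10 to 0.08 and Dnajb11 from -0.07 to 0.0042. Hspa5, the HSP70 of this compartment (BiP), had 2844, 1590, 2380 and 2659 normalized counts in the hippocampus, against 2190, 2649, 2276 and 2853 in the PFC. Dnajc3, its J-domain partner that also inhibits the kinase PERK, had 1021, 609, 860 and 1074 against 755, 815, 786 and 795. Without hippocampus replicate 2, the lowest of the 8 libraries, the 3 other hippocampus values of Dnajc3 lay above the PFC, and the log2 fold change rose from 0.14 to 0.32 (limma adjusted p = 0.0299). Dnajb11, a J-domain partner of Hspa5, had means of 656 ± 78.7 and 689 ± 73.3, and Dnajc10, a disulfide reductase with a J domain, 716 ± 53.6 and 694 ± 52.9 (SD, n = 4 each). Among the members with a promoter window, Hspa5, Hsp90b1 and Dnajc3 were the 3 that hold the endoplasmic reticulum stress element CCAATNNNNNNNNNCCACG. It is in 4% of the 75 member windows and in 0.119% of all 32851 windows. These stretches of GRCm38.p6 are shown because these members of the compartment share the fixed letters of the element, which is in capitals with 15 bases on either side. Hsp90b1 holds a further copy on the opposite strand.
Hspa5, chr2:34772010-34772058, plus strand: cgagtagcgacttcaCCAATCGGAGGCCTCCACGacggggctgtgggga
Hsp90b1, chr10:86705623-86705671, minus strand: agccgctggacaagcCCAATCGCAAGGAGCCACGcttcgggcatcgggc
Dnajc3, chr14:118937812-118937860, plus strand: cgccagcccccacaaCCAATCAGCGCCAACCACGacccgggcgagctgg
All 3 were lowest of the 8 libraries in hippocampus replicate 2, at 60.5%, 70.7% and 61.8% of the mean of the other hippocampus libraries. This was not particular to them, as Dnajb1 and Dnajb4, without the element, were at 53.3% and 62.7%. Among the 43 members with a mean of at least 100, that library was lowest in 37.2% and highest in 27.9%. Among all genes at that level it was lowest in 28.1%.

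None of the 9 mitochondrial members passed, and their log2 fold changes ran from -0.38 to 0.32 with a median of 0.0047. Hspa9 (mortalin), the HSP70 of the matrix, had 998, 1155, 832 and 1030 normalized counts in the hippocampus, against 994, 1035, 1063 and 892 in the PFC. Dnaja3, its J-domain partner, had means of 338 ± 33.9 and 324 ± 45.5 (SD, n = 4 each). Dnajc19 and Dnajc15, which associate with the import motor of the inner membrane, had log2 fold changes of 0.32 (SE 0.18, limma adjusted p = 0.416) and 0.0047 (SE 0.19).

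A list of 11 members taken as heat-inducible held Hspa1a, Hspa1b, Hspa8, Hsph1, Hsp90aa1, Hspb1, Dnaja1, Dnajb1, Hspe1, Hspd1 and Hspa4l. Not all are cytosolic or only inducible, since Hspd1 and Hspe1 form the mitochondrial chaperonin and Hspa8 is the constitutive HSP70. The 11 had a median log2 fold change of -0.17, with 4 above 0 and none past the threshold. Hspa1a and Hspa1b, the near-identical genes for inducible HSP70, had 29.0, 18.3, 30.5 and 53.1 and 19.5, 18.3, 16.8 and 18.5 normalized counts in the hippocampus. In the PFC they had 32.3, 36.4, 28.7 and 23.5 and 13.8, 21.3, 11.5 and 14.1. Neither gene separated the regions. Their promoter windows hold the same 38 bases around a pair of heat shock units (capitals), shown because the copies cannot be told apart there.
Hspa1a, chr17:34972238-34972275, minus strand: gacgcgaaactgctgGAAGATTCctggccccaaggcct
Hspa1b, chr17:34959320-34959357, minus strand: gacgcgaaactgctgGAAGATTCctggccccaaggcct
The summed level of the 11 members was 9092, 7347, 8918 and 9730 normalized counts in hippocampus replicates 1 to 4, against 8978 to 9758 in the PFC. Beside them, of 11 immediate early genes, which rise within minutes of neuronal activity or handling, 3 passed the threshold as lower in the hippocampus. These were Fos at -1.04, Egr1 at -0.74 and Dusp1 at -0.72 on the log2 scale. The 11 genes had a median log2 fold change of -0.65, with 1 above 0. Their summed level was 1830 to 2123 normalized counts in the hippocampus, against 2328 to 2807 in the PFC. Its part in the levels of the heat-inducible members was not tested.

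RefSeq promoter windows, 250 bases before to 50 after each start on GRCm38.p6, were found for 58 of the 79 members, 75 windows in all. They covered 55 of the 71 tested members. Tested members without a window, among them Hsp90aa1, Hsp90ab1, Hspa8, Hspa9, Hspa13, Hspb2, Dnajc2, Dnajc5 and Dnajc18, were not searched for any motif. Both strands were searched. The 3 heat shock units GAANNTTCNNGAA stood in 6 member windows (8%), those of Dnajb6, Hspd1, Hspe1 and Hsph1, and in 0.603% of all windows. The shorter GAANNTTC, which lies within the longer motif, stood in 16 member windows (21.3%), those of 14 members, and in 7.86% of all windows. The stretch of Dnajb6 is shown as the member with 3 units that is not part of the chaperonin pair or of HSP110 (chr5:29735837-29735879, plus strand).
Dnajb6: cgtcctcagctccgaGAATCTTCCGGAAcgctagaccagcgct
Dnajb6 had 36.4, 37.5, 33.6 and 60.1 normalized counts in the hippocampus, against 46.1, 55.2, 51.6 and 53.8 in the PFC. It did not separate the regions. The CCAAT box stood in 40% of member windows and 37.4% of all windows. TATAAA stood in 5.33% of member windows, those of the 4 members Dnajc19, Dnajc24, Hspb3 and Hspb6, and in 13.6% of all windows.

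Levels between genes were compared per kb of annotated exons, as the mean over the 8 libraries. Hsp90ab1 led with 2218 normalized counts per kb, followed by Hsp90b1 with 863, Hspa5 with 692, Dnajc6 with 668, Hspa4 with 608, Hsph1 with 569, Dnajc5 with 557.9, Dnaja2 with 540 and Hspa12a with 518. After this the next member, Hspa8, had 293. Hspa2 ranked 12 with 265 and Hspb3 ranked 51 with 18.7. Together the members held 0.694% to 0.738% of a library's normalized counts. The mean normalized count ran from 1.36 to 6651 among those tested, with 14 members above 1000.

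**Figure D3:**
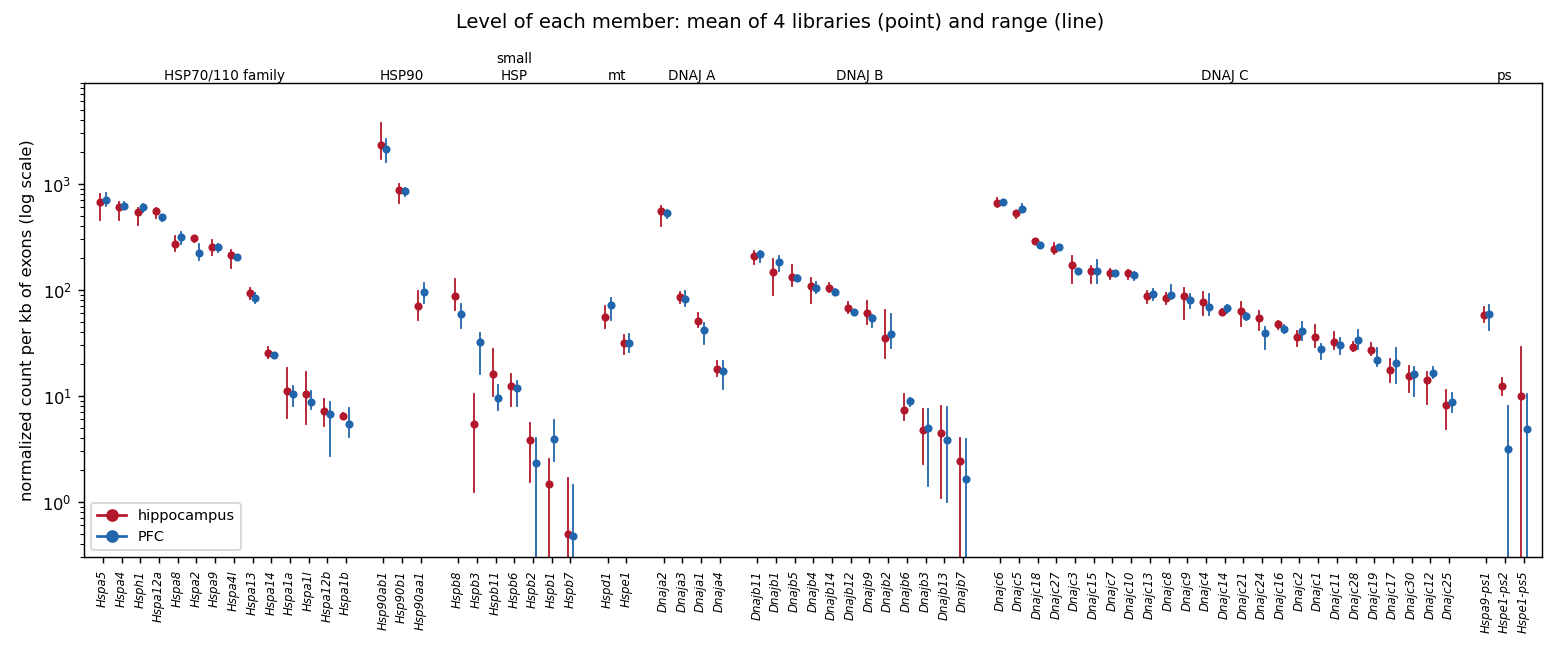
Normalized counts per kb of exons (y axis, log scale) of the tested members with an annotated length, in the hippocampus and the PFC. Points are means of 4 libraries and lines run from the lowest to the highest library, ending at the lower edge of 0.3 where a library was below it. The regions overlap in nearly all members, and Hsp90ab1 is highest at 2218 per kb over all libraries.

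The levels of 7 members are uncertain because 25% or more of their 75-base stretches, the length of a read, occur elsewhere in NCBIM37 without a mismatch. These were Hspa1b (55.8%), Hspa1a (54.8%), Hsp90aa1 (49.8%), Hspb1 (47.0%), Dnajb6 (44.3%), Hspd1 (35.4%) and Hspa8 (30.5%), while 44 of 78 members had none. Reads that align to more than 1 place are as a rule not counted by HTSeq. With all counts divided by the unrepeated stretches alone, Hspa8 was at 437 per 1000 such stretches and Hsp90aa1 at 209. This scale differs from that per kb also because a stretch has to fit within an exon. Dnaja2, without a repeated stretch, had 540 per kb and 701 per 1000 stretches. Hspa8 ranked 10 among the members on both scales, and Hsp90aa1 ranked 30 per kb and 18 per 1000 stretches. Strand was not used in counting, so reads of overlapping genes cannot be told apart. This touches 72.0% of the exon bases of Hspa1l (with Gm10501), 53.1% of Dnajb8 (with 1700031F10Rik), 44.1% of Dnaja4 (with Wdr61), 37.6% of Dnajc30 (with Wbscr22) and 36.5% of Dnajc14 (with Ormdl2). Hspa2 and Hspb3 had no repeated stretch.

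Among the libraries, hippocampus replicate 2 differed most from the others. It was the lowest of the 8 libraries in 22 of the 71 members (31.0%) and the highest in 16 (22.5%), beside 19.4% and 23.0% of all genes. Among the 43 members with a mean of at least 100 it was lowest in 37.2% and highest in 27.9%, beside 28.1% and 25.5% of all genes at that level. Its median distance from the middle of the 8 libraries was 0.31 on the log2 scale over the 71 members and 0.32 over all genes tested. In the other libraries the distance was 0.09 to 0.17 over the members and 0.16 to 0.26 over all genes. Compared with the mean of the other hippocampus libraries, hippocampus replicate 2 held 53.3% of Dnajb1 and 54.5% of Dnajc9, a histone chaperone. It also held 60.5% of Hspa5 and 62.7% of Dnajb4. It held 1.69 times as much Hspb8, 1.46 times as much Dnajb5 and Dnajc1, and 1.40 times as much Dnajb9, a J-domain protein of the endoplasmic reticulum. The members of that compartment did not move as a group, and their summed level was 8907 normalized counts in this library and 10691 to 11846 in the other hippocampus libraries. The cytosolic chaperonin CCT, a set of 9 genes outside the rule, showed the same order with 6033 against 7320 to 8269. Within it, Cct7 went the other way, at 1177 against 891 to 977. The summed folding and stress genes of the endoplasmic reticulum outside the rule also went the other way, at 15798 against 13656 to 15076.

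**Figure D4:**
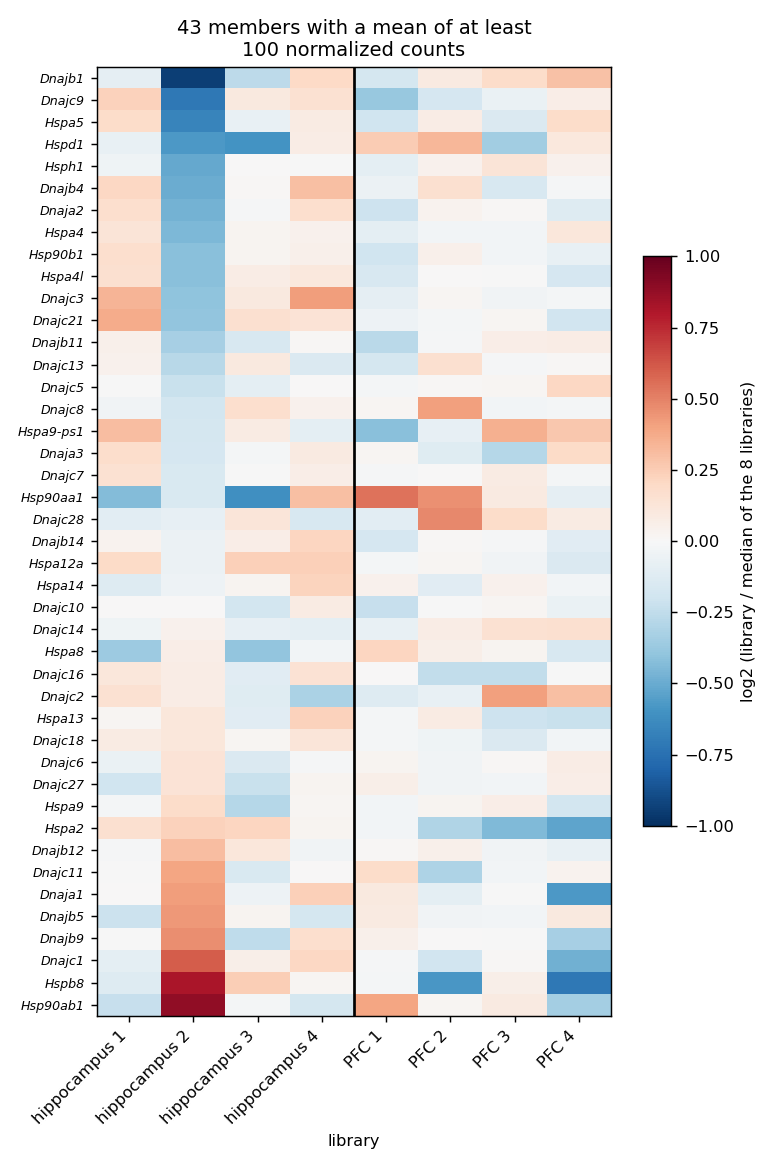
Log2 ratio of each library to the median of the 8 libraries (colour, from -1 to 1) for the 43 members that averaged 100 normalized counts or more, ordered by hippocampus replicate 2. The strongest colours of both signs are in the column of that library, from Dnajb1 and other members below to Hsp90ab1 above.

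Of 25 partner cochaperones of HSP70 and HSP90, Bag4 was the 1 called higher in the hippocampus, beside 2.55% of all genes, and Sgtb the 1 called higher in the PFC, beside 3.13%. Bag4, a nucleotide exchange factor of HSP70, had 355, 329, 383 and 402 normalized counts in the hippocampus, against 266, 278, 275 and 179 in the PFC (a log2 fold change of 0.57, SE 0.15, limma adjusted p = 0.0295). Sgtb, a cochaperone with tetratricopeptide repeats, had 1754, 1472, 1747 and 1802 against 2301, 2358, 2844 and 2658 (-0.58, SE 0.10, limma adjusted p = 0.00253). The regions lay apart in both genes. None passed among 4 heat shock transcription factors, 9 CCT subunits, 20 folding and stress genes of the endoplasmic reticulum, 8 import and quality control genes of the mitochondrion, 9 clathrin and vesicle partners and 3 other HSP90, HSP70 and small heat shock genes (Trap1, Hyou1 and a crystallin). Hsf1, the main heat shock factor, had means of 241 ± 35.3 and 255 ± 42.7 (SD, n = 4 each).

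The 8 members below a mean of 1 were Dnajb8, Dnajc22, Dnajc5g and Hspe1-ps6, without a read in any library, and Dnaja1-ps, Dnajc5b, Hspb9 and Hspe1-ps4. Dnajc5b had 2, 1 and 3 reads in hippocampus replicates 1 to 3 and none elsewhere, no more than a count of 0 would allow. Of the 7 pseudogene names, Hspa9-ps1 was the only one above 10 normalized counts, at 112 ± 17.1 and 114 ± 26.4 (SD, n = 4 each). Just above the level, Hspb7 had a mean of 1.36 and was read in 2 libraries of each region.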

How the data were processed

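The authors trimmed 75-base reads with FastX-Toolkit, aligned them to NCBIM37 with TopHat2 2.0.9, obtained counts by gene name from HTSeq 0.6.0, ignoring strand, and divided them by DESeq size factors. The deposited values used here are this signal, normalized counts for 8 libraries and 34620 gene names. Each value times its library's size factor, the inverse of the smallest value above 0, was a whole number within 1e-06 (100% of values). Which release of DESeq or of the annotation was used is not given in the sources used here.

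Regions were compared with limma 3.58.1 (two-sided, with a variance trend), taking log2(normalized count + 1) of the 19789 genes that averaged 1 or more, with Benjamini-Hochberg adjustment. The pseudocount shrinks the fold changes of genes with low counts. A count test of the recovered reads used edgeR 4.0.16 (quasi-likelihood, 1170 genes called) and DESeq2 1.42.0 (1463 genes), beside 1124 with limma. Further alternatives were pseudocounts of 0.5 and 4, a mean of at least 10, no filter, TMM scaling, quantile normalization, array weights, a replicate block and leaving out each library. Members and gene lists were chosen with earlier results of these data known.

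Chosen to be named were members past the threshold or with regions that lay apart, the 2 most counted of each class, and the members of the compartment lists. Values by region are not given for all of the last, among them Dnajb12, Hspa13, Dnajc11, Dnajc25 and Dnajc28. Other named genes, such as Hspa12a, were chosen after their values were seen. Gene positions and exon lengths came from GENCODE M1 on NCBIM37, which held 78 of the 79 members, and promoter windows from RefSeq (GRCm38.p6). Levels over unrepeated 75-base stretches alone were an alternative chosen after seeing the data. R was 4.3.3 and Python 3.11.15.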

Additional observations from a re-analysis of the deposited data

Results flagged for a closer look

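For each of the 71 tested members the 4 values of each region were compared among themselves, 142 groups in all, and a library far from the other 3 was found in 11 of them, in 10 members. Chance gives about 1 in 20, or 7.1 of 142. Of the 11, 4 were in hippocampus replicate 2. There Hsp90ab1, the constitutive HSP90, was far above the others at 11241 normalized counts (next 5999), as was Dnajb2 at 91.4 (next 38.9), while the HSP110 proteins Hsph1 at 2900 (next 4016) and Hspa4l at 1891 (next 2660) were far below. In hippocampus replicate 4, the shallowest library, Dnajb6 was high at 60.1 (next 37.5) and Dnajc12, a cochaperone of aromatic amino acid hydroxylases, was low at 23.1 (next 43.1). In PFC replicate 1, Dnajb2 was high at 83.0 (next 47.3) and Dnajc19 at 114 (next 80.2). In the remaining PFC libraries, Dnajc8 was high in replicate 2 at 282 (next 215), Dnajc30 low in replicate 3 at 11.5 (next 20.2) and Dnajc5 high in replicate 4 at 4508 (next 3959). No reason for any of these values was tested.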

How the results depend on the processing

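Hspb3 was called higher in the PFC in all 18 alternatives, and Hspa2 higher in the hippocampus in 12. The count of members called higher in the hippocampus was 1 in the fit reported and 0 to 3 when 1 library was left out, and that in the PFC 1 and 1 to 2. It was 0 without hippocampus replicate 1 or 3 or PFC replicate 2, 3 or 4, and 3 without hippocampus replicate 2 (Dnajc3, Hspa12a and Hspa2). Without hippocampus replicate 4 it was 2 in the PFC (Hsp90aa1 and Hspb3). With array weights it was 3 in the hippocampus (Dnajc24, Hspa12a and Hspa2) and 3 in the PFC (Hsp90aa1, Hspa8 and Hspb3). The cause of these changes was not tested. With the replicate number as a block it was 0 in the hippocampus and 1 in the PFC. Whether the numbers pair the libraries is not stated, and same-numbered libraries did not deviate together (correlations across genes of -0.127, -0.0865, 0.0286 and 0.0190, genes not being independent). Over all genes the fit reported called 1124, the block 729, array weights 2441 and leaving out hippocampus replicate 2 2216. Over the 8 fits without a library, as few as 573 were called. Scalings moved the median of all genes by less than 0.01 on the log2 scale.

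Among 43 named members, 708 of 772 log2 fold changes under the alternatives kept their direction and their side of the threshold, 6 lost the call, 5 gained it and 53 changed sign, none of them past the threshold. With array weights the changed signs were Dnajc13 at 0.018, Dnajc25 at 0.037, Hsp90ab1 at -0.13, Hspa4 at 0.069, Hspa5 at 0.060 and Hspa9 at -0.067. With edgeR and DESeq2 they were Dnajb5 at 0.014 and 0.0077 and Dnajc15 at -0.0045 and -0.012, and for Hspe1 0.0016 with TMM scaling and 0.012 with quantile normalization. When 1 library was left out, the log2 fold change ran from -0.032 to 0.18 for Dnaja2, -0.011 to 0.15 for Dnaja3, -0.15 to 0.0042 for Dnajb11, -0.15 to 0.062 for Dnajb5, -0.0090 to 0.097 for Dnajc10, -0.020 to 0.16 for Dnajc11, -0.12 to 0.0057 for Dnajc13, -0.11 to 0.12 for Dnajc15, -0.29 to 0.10 for Dnajc25, -0.26 to 0.094 for Dnajc30, -0.092 to 0.00065 for Dnajc6, -0.18 to 0.19 for Hsp90ab1, -0.053 to 0.14 for Hsp90b1, -0.23 to 0.27 for Hspa1a, -0.11 to 0.078 for Hspa4, -0.20 to 0.081 for Hspa5, -0.066 to 0.092 for Hspa9, -0.11 to 0.26 for Hspb6 and -0.093 to 0.10 for Hspe1. Depth limits what can be said of the 9 members with means under 10 normalized counts.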
